A study of Homo sapiens with 6 samples.

Results

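Ribosome biogenesis factors are the nucleolar proteins that build ribosomes without staying in them, and 60 genes for such factors were followed in RNA-seq of LNCaP cells treated with CDKI-73. The 60 were listed by name as factors of the pathway, and all were found among the 29744 genes of the deposited table. LNCaP is a line of human prostate cancer cells that responds to androgen. CDKI-73 is a compound that inhibits CDK9, and this kinase lets paused RNA polymerase II go on into elongation. The treated group received 250 nM CDKI-73 for 4 h (3 biological replicates) and the control group received the vehicle DMSO for 4 h (3 biological replicates). Both groups are the same unmodified line in the same medium. The prostate genes *KLK3* and *FOLH1* were at 2595 and 1164 CPM (reads per gene after scaling each sample to the same total) on average with DMSO, and the leukocyte gene *PTPRC* and the endothelial gene *PECAM1* were at 0.02 and 0.013 CPM. The fibroblast gene *COL1A1* and the mesenchymal gene *VIM* were not absent, at 9.86 and 4.74 CPM on average with DMSO.

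In the nucleolus, RNA polymerase I transcribes a long precursor that is cut, folded and chemically modified into mature ribosomal RNAs (rRNAs). The small subunit (SSU) processome, a large particle built around the U3 small nucleolar RNA, assembles on the start of this precursor and prepares the RNA of the small ribosomal subunit, and a different set of factors matures the large subunit. Small nucleolar ribonucleoproteins (snoRNPs) of the box C/D and H/ACA classes guide 2′-O-methylation and pseudouridylation of rRNA. Many genes of this pathway are known targets of the transcription factor MYC, which binds E-boxes. The 60 genes were sorted by role into 24 small subunit factors (20 of the SSU processome and 4 that act later on the small subunit precursor), 22 large subunit factors, 9 rRNA modification factors and 5 nucleolar proteins with other or several roles.

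Promoters of the members held the E-box in a larger share than promoters in general. RefSeq windows of 300 bases (250 before and 50 after the start site, GRCh38.p14) could be matched for 50 of the 60 genes. The E-box CACGTG, a palindrome that reads the same on both strands and the only motif searched, was in 19 of the 50 windows (38.0%), in 10.4% of 9162 windows of tested protein-coding genes and in 7.43% of all 27305 windows. Base composition was not matched between these sets. By role, 10 of 21 small subunit genes held it (47.6%), as did 6 of 18 large subunit genes (33.3%), 2 of 7 modification genes (28.6%) and 1 of 4 other nucleolar genes. Of 22 matches, 17 began within 50 bases of the start site. The window ends 50 bases after that site, so the 14 matches at or after it could not lie farther. The other 8 began before it, and positions in other promoters were not compared. Stretches of 30 bases are shown for members that changed strongly and for members that did not, so that their start regions can be read beside their changes, with the E-box in capitals and each on the strand of its gene.
WDR43, plus strand, chr2:28894658-28894687: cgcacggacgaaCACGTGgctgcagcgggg
RCL1, plus strand, chr9:4792936-4792965: cctgttccaaacCACGTGgacgcgtctggg
BYSL, plus strand, chr6:41921515-41921544: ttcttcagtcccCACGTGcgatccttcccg
NOC3L, minus strand, chr10:94362903-94362932: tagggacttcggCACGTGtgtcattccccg
UTP20, plus strand, chr12:101280083-101280112: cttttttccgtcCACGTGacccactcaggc
UTP18, plus strand, chr17:51260538-51260567: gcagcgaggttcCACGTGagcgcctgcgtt
GNL2, minus strand, chr1:37595917-37595946: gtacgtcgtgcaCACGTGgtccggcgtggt
PES1, minus strand, chr22:30591880-30591909: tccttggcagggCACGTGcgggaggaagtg
FBL, minus strand, chr19:39846356-39846385: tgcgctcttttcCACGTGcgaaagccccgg
IMP4, plus strand, chr2:130342900-130342929: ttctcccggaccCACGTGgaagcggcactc
NOP10, minus strand, chr15:34343130-34343159: gaaattgacgaaCACGTGacgcggtcgggc

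After 4 h with CDKI-73 most of the 60 genes took a smaller share of the reads, to very different degrees. Each gene was tested on log2(CPM + 0.1) with limma together with all 13373 genes at a mean of at least 0.5 CPM, and passed at a Benjamini-Hochberg adjusted p of 0.05 or less. All 60 members could be tested: 40 passed as lower, 10 as higher and the other 10 as neither, while 72.4% of all tested genes passed, 48.2% of all tested genes were lower and 24.2% were higher. Of the 40, 20 were lower by at least 2-fold (33.3% of the members, against 22.3% of all tested genes), and the highest member, at a log2 fold change of 0.44, stayed short of 2-fold, which 1.11% of all tested genes passed. The median log2 fold change, CDKI-73 over DMSO, was −0.51 over the members and −0.18 over all tested genes. The CDKI-73 samples lay wholly below or wholly above the DMSO samples for 53 of the 60 genes, against 75.9% of all tested genes. Of these 53, 41 lay below and 12 above, against 50% and 25.9% of all tested genes.

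CPM are shares of the counted reads, so the amount of mRNA per cell was not measured, and fewer cells with a transcript and less of it per cell cannot be told apart. Another scaling moves every gene by nearly the same amount. Scaled by the median of ratios, the upper quartile or a trimmed mean, 31 to 33 members were lower and 19 to 21 were higher. Scaled by *ACTB*, *GAPDH* and *HPRT1*, which served as reference genes in qRT-PCR, 55 were lower and 0 were higher (limma). As CPM, these reference genes themselves passed as higher, at log2 fold changes of 0.36, 0.55 and 0.32. Over all tested genes, 4904 to 5279 were lower and 5122 to 5760 were higher by the first 3 scalings, and 9882 were lower and 395 were higher by the reference genes. Since a scaling moves all genes nearly alike, the member median minus the median of all tested genes could hardly change (−0.32 to −0.34). This difference was −0.33 in the main fit, −0.25 without CDKI-73 replicate 3 and −0.43 with no filter. Under each of the 4 scalings the 20 genes lower by at least 2-fold all passed as lower, with 16 to 20 still beyond 2-fold. None of the 10 higher genes passed as higher by the reference genes, and 5 passed as lower. Genes are therefore called higher below as shares of reads.

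**Figure D1:**
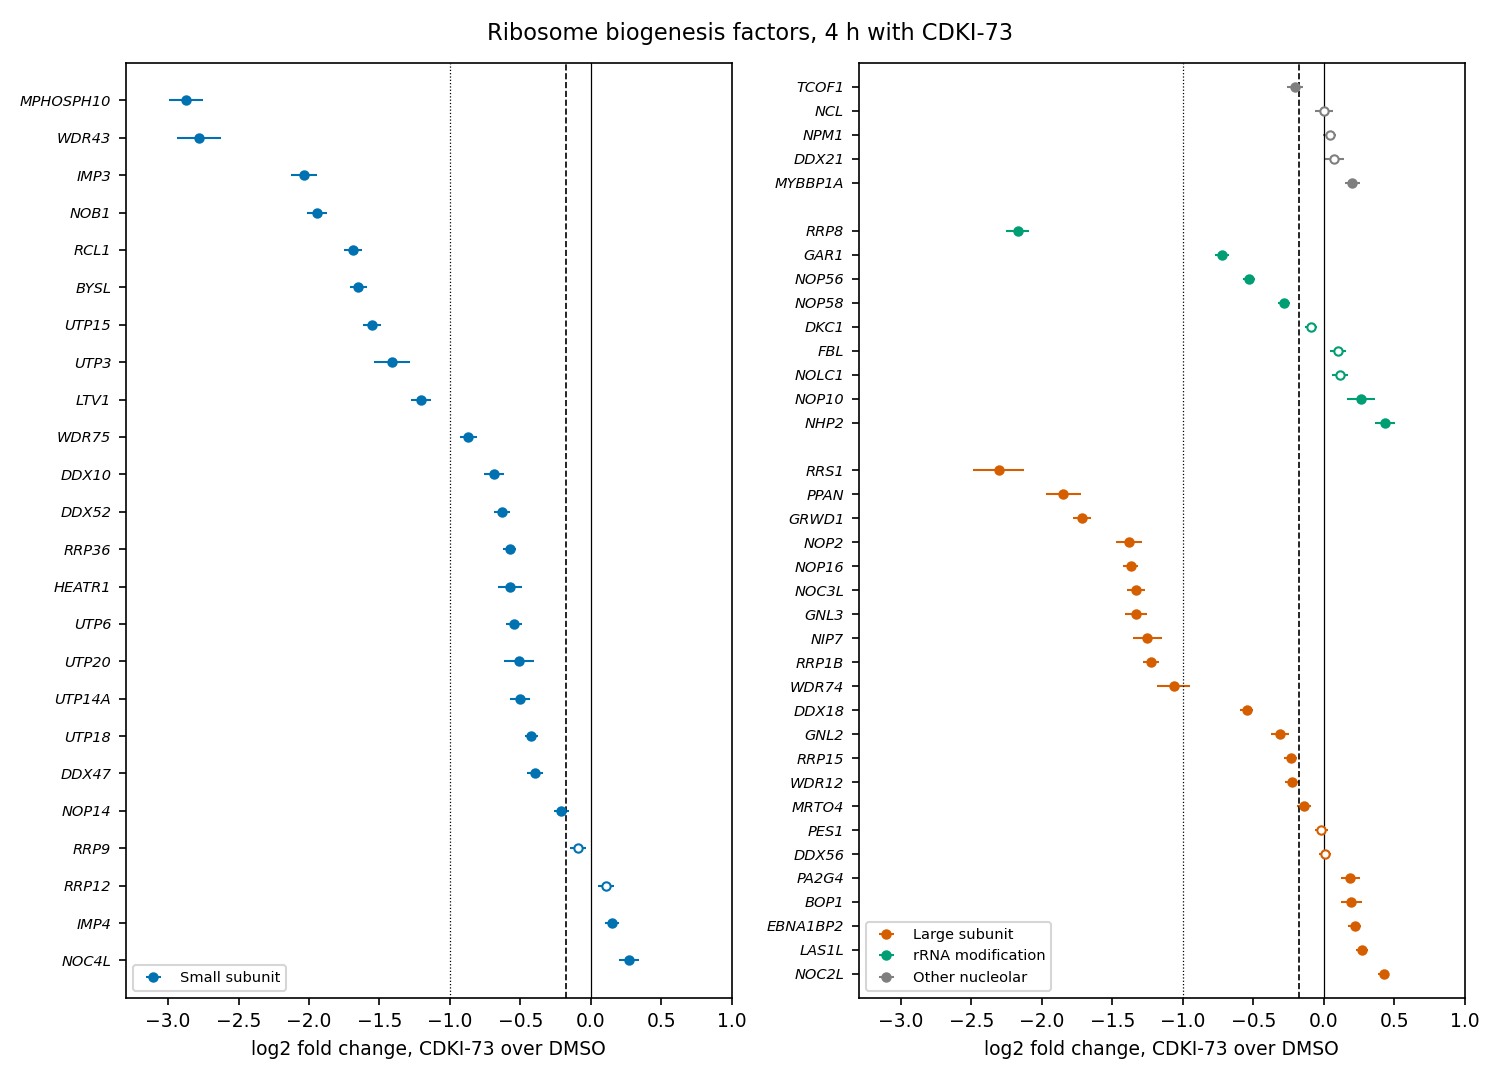
Log2 fold change, CDKI-73 over DMSO, of the 60 genes (points) with the standard error from limma (bars), ordered within each role. Filled points passed an adjusted p of 0.05, the dashed line marks −0.18, the median over all tested genes, and the dotted line marks a 2-fold decrease. Small and large subunit factors spread from near 0 to beyond −2, and *RRP8* is the 1 rRNA modification factor beyond the dotted line.

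The samples held between 46084300 and 60923600 counted reads, inferred from the step between CPM values, so that 1 read was worth 0.0164 to 0.0217 CPM. The lowest member value in any sample was 3.02 CPM, in *PPAN*. CDKI-73 replicate 3 was the lowest treated sample for 36 of the 60 genes and for 15 of the 20 genes lower by at least 2-fold. This sample also had the fewest counted reads (46084300). Over all tested genes its median log2 deviation from the DMSO mean was −0.195, against −0.178 and −0.169 in CDKI-73 replicates 1 and 2. The share of all tested genes with this order was not counted. Without CDKI-73 replicate 3, 41 members were lower, 11 were higher and 19 were lower by at least 2-fold. Without DMSO replicate 2, 39 were lower, 6 were higher and 20 were lower by at least 2-fold.

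Most small subunit factors were lower. Of 24 genes, 20 passed as lower (83.3%, against 48.2% of all tested genes). A further 2 passed as higher (8.33%, against 24.2%) and the other 2 did not pass. By at least 2-fold 9 were lower (37.5%, against 22.3% of all tested genes), and the median log2 fold change was −0.60. Over the 4 other scalings 17 to 23 were lower and 0 to 4 were higher. Without the 4 late factors, 17 of the 20 SSU processome genes were lower, 6 of them by at least 2-fold, with a median of −0.57. Of the 4 late factors 3 were lower by at least 2-fold, with a median of −1.43. *MPHOSPH10* (chromosome 2, 71130634 to 71150101 of GRCh38), which encodes the scaffold of the MPP10 complex in the SSU processome, had the lowest log2 fold change of all members. It was at 60.2, 68.0 and 66.7 CPM in the DMSO samples and at 9.78, 9.64 and 7.16 CPM in the CDKI-73 samples. The groups were far apart, with 13.6% of the vehicle level left. It stood at a log2 fold change of −2.87 (standard error, SE, 0.12, limma adjusted p = 1.89e-07).

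*WDR43* (chromosome 2, 28894667 to 28948219), a subunit of the early-binding UTP-A complex, went from 116.2, 124.4 and 122.4 CPM to 20.4, 20.1 and 13.0 CPM. CDKI-73 replicate 3 was the lowest of its group, below the other two, which lay close together. The log2 fold change of *WDR43* was −2.78 (SE 0.16, limma adjusted p = 9.29e-07). *IMP3* (chromosome 15, 75639093 to 75640224), a partner of *MPHOSPH10* whose canonical transcript has a single exon, was at 87.5, 81.5 and 82.7 CPM with DMSO and at 17.8, 20.6 and 23.02 CPM with CDKI-73. Here replicate 3 was the highest treated sample, unlike in *MPHOSPH10* and *WDR43*. The log2 fold change of *IMP3* was −2.04 (SE 0.09, limma adjusted p = 2.60e-07).

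The other small subunit genes lower by at least 2-fold lay between −1.94 and −1.21. *NOB1*, the endonuclease that makes the final cut of the small subunit rRNA, was at −1.94. *BYSL* and *LTV1*, which act on the late small subunit precursor, were at −1.65 and −1.21. *RCL1*, which resembles RNA cyclases, was at −1.69, the UTP-A gene *UTP15* at −1.55 and the processome gene *UTP3*, also of a single exon, at −1.41. A further UTP-A gene, *WDR75*, lay just inside 2-fold at −0.87 (limma adjusted p = 2.93e-06). A denser block of 9 genes fell by less: the helicase genes *DDX10* (−0.69), *DDX52* (−0.63) and *DDX47* (−0.40), *RRP36* (−0.58), the UTP-A gene *HEATR1* (−0.57), the UTP-B genes *UTP6* (−0.54) and *UTP18* (−0.42), *UTP20* (−0.51) and *UTP14A* (−0.50). The counts of *DDX47* are uncertain, since it overlaps *APOLD1* on the same strand. *NOP14*, at −0.21, passed as lower (limma adjusted p = 0.0068) but stood near the median of all genes, and was at 0.07 by the upper quartile. The U3 protein gene *RRP9* (−0.09, adjusted p = 0.2) and *RRP12* (0.10, adjusted p = 0.13), which acts in export, did not pass in limma.

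Both small subunit genes called higher changed little. *NOC4L*, whose product is a partner of NOP14, was at 8.52, 8.61 and 8.89 CPM with DMSO and at 10.5, 9.96 and 10.98 CPM with CDKI-73. The groups did not overlap, and the gene stood at a log2 fold change of 0.27 (SE 0.069, limma adjusted p = 0.0074), or −0.13 by the reference genes. *IMP4* (chromosome 2, 130342897 to 130347967), the other partner of *MPHOSPH10*, was at 46.3, 44.8 and 47.8 CPM with DMSO and at 51.8, 49.6 and 53.0 CPM with CDKI-73. It stood at a log2 fold change of 0.15 (SE 0.05, limma adjusted p = 0.024), or −0.25 by the reference genes. It did not pass without DMSO replicate 1 or 2 or without CDKI-73 replicate 1, at 0.15, 0.13 and 0.15.

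The MPP10 complex thus held the lowest member and *IMP4*, which changed little. A ratio of genes within a sample does not depend on the scaling, and ratios were compared for 15 pairs of partners in 4 complexes: the MPP10 complex, PES1-BOP1-WDR12, the box C/D proteins and the H/ACA proteins. The ratio of *MPHOSPH10* to *IMP4* was 1.3, 1.52 and 1.39 in the DMSO samples and 0.189, 0.194 and 0.135 in the CDKI-73 samples. The ratio of *IMP3* to *IMP4* went from 1.81 ± 0.082 to 0.398 ± 0.048 (SD, n = 3), and that of *MPHOSPH10* to *IMP3* from 0.776 ± 0.078 to 0.443 ± 0.12. The groups did not overlap in any of the 15 ratios, many of which share a gene. Ratios of other gene pairs were not compared, and the groups did not overlap for 75.9% of all single tested genes. With 3 samples against 3 a two-sided exact permutation test cannot give less than p = 0.1, and all 15 pairs had this p, also after Benjamini-Hochberg adjustment, so that no pair could pass 0.05.

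**Figure D2:**
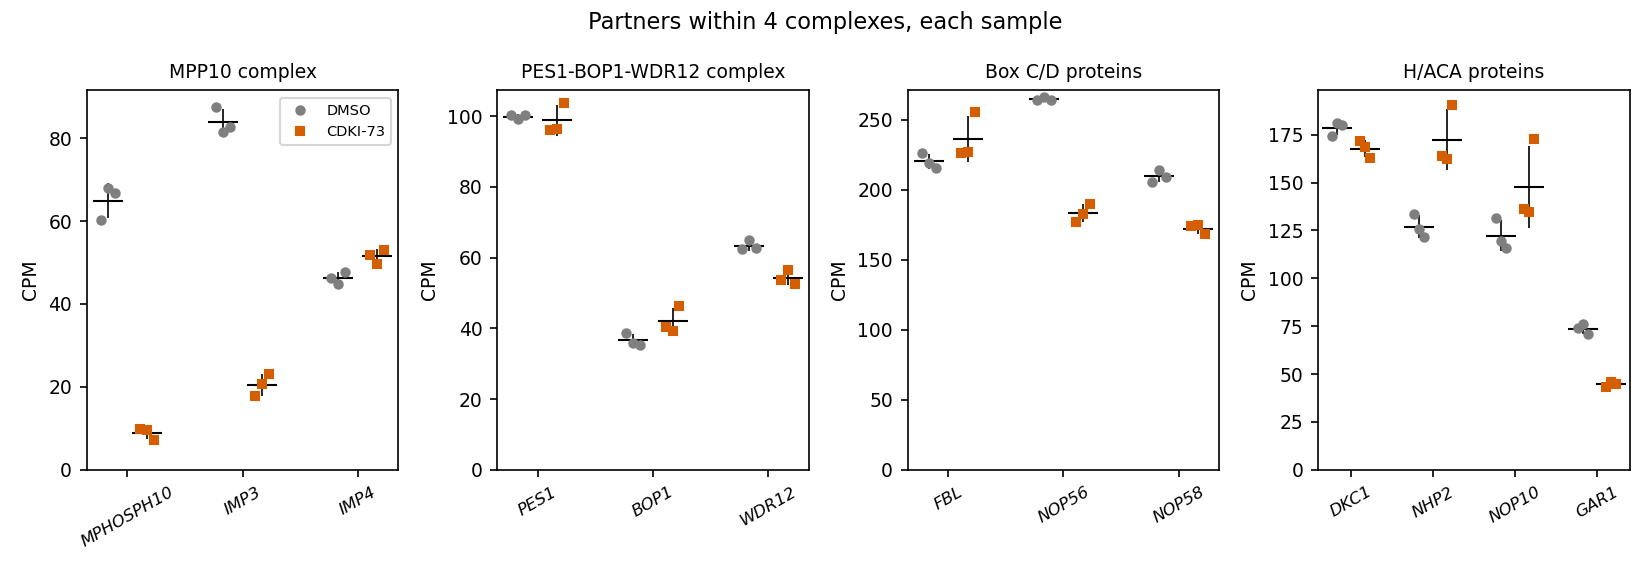
CPM of each sample for partners in 4 complexes (DMSO as grey circles, CDKI-73 as orange squares, replicates 1 to 3 from left to right), with the mean and SD (n = 3) in black. *MPHOSPH10* and *IMP3* lie below *IMP4* with CDKI-73, and *GAR1* lies lower with CDKI-73 while *NHP2* lies higher.

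Large subunit factors spread from strong decreases to small increases. Of 22 genes, 15 passed as lower (68.2%, against 48.2% of all tested genes). A further 5 passed as higher (22.7%, against 24.2%) and the other 2 did not pass. The median log2 fold change was −0.43. By at least 2-fold 10 were lower (45.5%, against 22.3% of all tested genes). The same held for 37.5% of the small subunit factors and for 6 of the 20 SSU processome genes alone. Over the 4 other scalings 11 to 20 were lower and 0 to 8 were higher. The proportions of the roles are a description, since genes are not replicates, and were not tested against each other. *RRS1*, a single-exon gene whose product helps to bring the 5S ribonucleoprotein into the large subunit precursor, was at 82.1, 80.3 and 78.1 CPM with DMSO and at 17.7, 20.5 and 11.5 CPM with CDKI-73. Replicate 3 was the lowest and the groups were well apart, with a log2 fold change of −2.31 (SE 0.18, limma adjusted p = 7.16e-06).

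*PPAN* (chromosome 19, 10106223 to 10112012), a homolog of a yeast large subunit assembly factor, went from 14.5, 11.9 and 10.9 CPM to 3.02, 3.68 and 3.41 CPM. It overlaps the read-through gene *PPAN-P2RY11* on the same strand, so its counts are uncertain, and the gene stood at a log2 fold change of −1.85 (SE 0.12, limma adjusted p = 2.68e-06). *GRWD1* (chromosome 19, 48445983 to 48457022), which encodes a histone-binding WD40 protein and overlaps *KCNJ14* on the same strand, went from 25.3, 23.3 and 24.1 CPM to 7.27, 7.07 and 7.55 CPM. Its treated samples lay close together, and the log2 fold change was −1.72 (SE 0.064, limma adjusted p = 1.15e-07).

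Also lower by at least 2-fold were *NOP2* (−1.38), which methylates a cytosine of the large subunit rRNA, *NOP16* (−1.37), *NOC3L* (−1.33), the nucleostemin gene *GNL3* (−1.33), *NIP7* (−1.25), *RRP1B* (−1.23) and *WDR74* (−1.06). *WDR74* was the nearest to 2-fold, and was at −0.92 without CDKI-73 replicate 3. It overlaps *TEX54* on the same strand, so its counts are uncertain. *GNL3* was the most abundant of the genes lower by at least 2-fold, at 350.9 ± 11.9 CPM (SD, n = 3) with DMSO and 139.7 ± 15.2 CPM (SD, n = 3) with CDKI-73. After a gap came the helicase gene *DDX18* (−0.55), then *GNL2* (−0.31), *RRP15* (−0.24), *WDR12* (−0.22) and *MRTO4* (−0.14), of which *RRP15*, *WDR12* and *MRTO4* were above 0 by the trimmed mean and by the upper quartile. *MRTO4* did not pass without DMSO replicate 1 or 2 or without CDKI-73 replicate 1, at −0.13, −0.14 and −0.12. *PES1* (−0.02, adjusted p = 0.76) and the helicase gene *DDX56* (0.01, adjusted p = 0.89) did not pass in limma.

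The large subunit genes called higher were *NOC2L*, *LAS1L*, *EBNA1BP2*, *BOP1* and *PA2G4*, at 0.42, 0.27, 0.22, 0.19 and 0.19, and by the reference genes *NOC2L* alone of these stayed above 0, at 0.02. The call of *PA2G4* was lost when DMSO replicate 1 or 2 or CDKI-73 replicate 1 or 2 was left out, with log2 fold changes of 0.13, 0.20, 0.14 and 0.19. *NOC2L* (chromosome 1, 944203 to 959256), whose product also inhibits histone acetylation, was at 180.7, 185.5 and 184.7 CPM with DMSO and at 245.6, 242.5 and 251.4 CPM with CDKI-73. Its groups were well apart (SE 0.039, limma adjusted p = 1.89e-05). *LAS1L*, part of the endonuclease that cuts the spacer between the large subunit rRNAs, went from 75.4, 75.8 and 77.8 CPM to 94.8, 90.1 and 90.9 CPM (limma adjusted p = 5.94e-04).

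In the complex of PES1, BOP1 and WDR12, which is needed to process the large subunit precursor, the partners stayed closer to each other. *PES1* was at 100.3, 99.1 and 100.3 CPM with DMSO and at 96.1, 96.5 and 103.8 CPM with CDKI-73, and these ranges overlapped. *BOP1* was at 38.8, 35.9 and 35.3 CPM and then at 40.5, 39.2 and 46.4 CPM (limma adjusted p = 0.044). This call was lost without DMSO replicate 2 or 3 and without CDKI-73 replicate 1 or 3, with log2 fold changes of 0.18, 0.17, 0.22 and 0.12. *WDR12* was at 62.3, 64.9 and 62.7 CPM and then at 53.6, 56.5 and 52.5 CPM, with no overlap. The ratio of *BOP1* to *WDR12* went from 0.579 ± 0.037 to 0.778 ± 0.097 (SD, n = 3), a smaller shift than in the MPP10 complex.

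The rRNA modification factors had a median log2 fold change of −0.09, against −0.18 for all tested genes. Of 9 genes, 4 passed as lower (44.4%, against 48.2% of all tested genes), 2 passed as higher (22.2%, against 24.2%) and the other 3 did not pass. These shares are near those of all tested genes. By the median of ratios, trimmed mean and upper quartile their median turned to 0.11, 0.15 and 0.18, against 0.02, 0.055 and 0.093 for all tested genes, and by the reference genes it was −0.50, against −0.58. Over the 4 scalings 3 to 7 genes were lower and 0 to 5 were higher. *RRP8* (chromosome 11, 6595072 to 6603616), which methylates an adenine of the large subunit rRNA and is not part of a snoRNP, was the 1 member of the group lower by at least 2-fold. It was at 22.5, 22.3 and 20.8 CPM with DMSO and at 5.16, 4.82 and 4.38 CPM with CDKI-73. It stood at a log2 fold change of −2.17 (SE 0.081, limma adjusted p = 1.15e-07).

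Among the box C/D proteins, the methyltransferase gene *FBL* (fibrillarin) was at 226.1, 219.3 and 215.4 CPM with DMSO and at 226.5, 226.7 and 255.2 CPM with CDKI-73. Every treated sample was above every vehicle sample, but the log2 fold change of 0.10 did not pass (limma adjusted p = 0.15). *NOP56* was at 263.8, 265.9 and 263.8 CPM and then at 176.9, 182.8 and 189.7 CPM, a change on the log2 scale of −0.53 (SE 0.042, limma adjusted p = 7.41e-06). *NOP58* was at 205.4, 214.2 and 209.2 CPM and then at 174.2, 174.4 and 168.1 CPM, a change on the log2 scale of −0.28 (limma adjusted p = 3.06e-04). NOP56 and NOP58 sit together on box C/D snoRNAs, and the ratio of their mRNAs went from 1.26 ± 0.022 to 1.06 ± 0.058 (SD, n = 3).

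The H/ACA protein genes moved apart. *GAR1* was at 74.0, 76.2 and 71.0 CPM with DMSO and at 43.3, 45.9 and 44.8 CPM with CDKI-73, a log2 fold change of −0.72 (SE 0.049, limma adjusted p = 2.84e-06). *NHP2* was at 133.6, 125.8 and 121.6 CPM and then at 163.7, 162.4 and 190.7 CPM, a change on the log2 scale of 0.44 (SE 0.071, limma adjusted p = 6.29e-04), or 0.03 by the reference genes. *NOP10* was at 131.6, 119.3 and 116.0 CPM and then at 136.3, 134.7 and 172.6 CPM. In *NHP2* and *NOP10* replicate 3 was clearly the highest treated sample. The log2 fold change of *NOP10* was 0.27 (limma adjusted p = 0.038), or −0.14 by the reference genes. This call was lost without DMSO replicate 2 (0.25) or 3 (0.23), and with no filter, without trend and with the replicate block. *DKC1*, which encodes the pseudouridine synthase dyskerin, was at 174.4, 181.1 and 180.3 CPM and then at 171.6, 168.6 and 162.8 CPM. Its treated samples were all below the vehicle samples, but the log2 fold change of −0.09 did not pass (limma adjusted p = 0.08). The ratio of *NHP2* to *GAR1* went from 1.72 ± 0.077 to 3.86 ± 0.37 (SD, n = 3). *NOLC1*, a chaperone of both snoRNP classes, was at 0.12 and did not pass (limma adjusted p = 0.11).

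Of the 5 remaining nucleolar proteins 1 passed as lower, 1 passed as higher and 3 did not pass. By the median of ratios, trimmed mean and upper quartile 4 were higher and 0 were lower, and by the reference genes all 5 were lower (limma). *NCL* (nucleolin) was at 1498, 1632 and 1631 CPM with DMSO and at 1677, 1631 and 1461 CPM with CDKI-73. *NPM1* (nucleophosmin) was at 1579, 1698 and 1617 CPM and then at 1688, 1697 and 1651 CPM. The groups overlapped in both genes, with adjusted p = 0.99 and 0.44 from limma. *DDX21*, a helicase gene that links RNA polymerase I to rRNA processing, was at 678.7, 705.1 and 705.3 CPM and then at 768.3, 786.1 and 652.5 CPM, so that its treated samples lay on both sides of the vehicle samples (0.07, limma adjusted p = 0.37). *TCOF1* (treacle), which promotes transcription by RNA polymerase I, was at 62.5, 65.0 and 70.0 CPM and then at 56.6, 55.9 and 58.8 CPM. It stood at a log2 fold change of −0.20 (limma adjusted p = 0.0096), or 0.07 by the upper quartile. *MYBBP1A*, which binds MYB and acts in rRNA synthesis, was at 77.2, 76.5 and 84.8 CPM and then at 93.1, 92.3 and 88.5 CPM (0.20, limma adjusted p = 0.0094, or −0.21 by the reference genes).

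**Figure D3:**
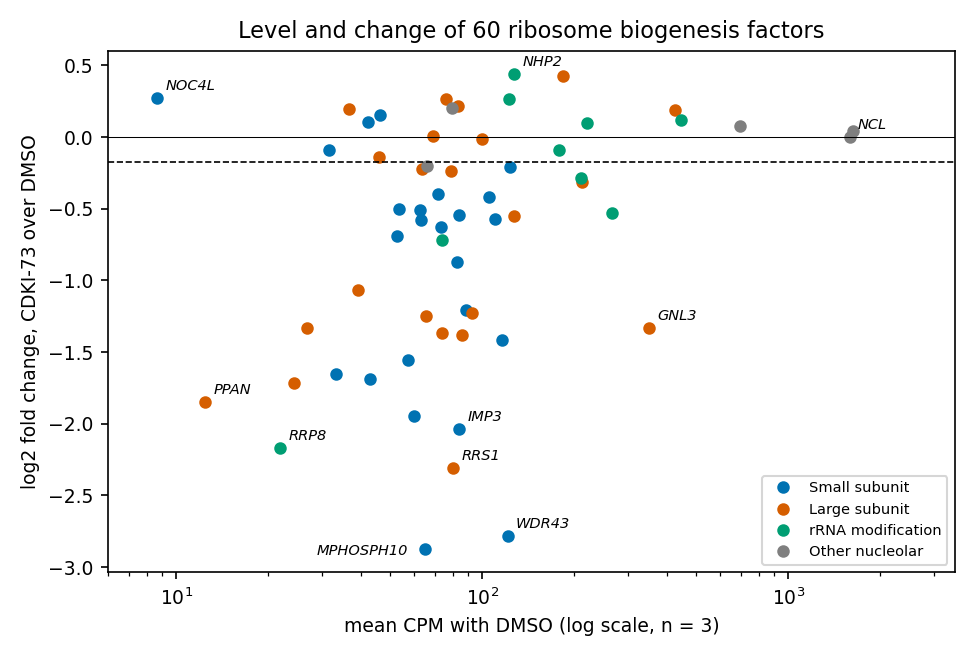
Log2 fold change, CDKI-73 over DMSO, against the mean CPM with DMSO (log scale, n = 3) for the 60 genes, coloured by role, with the median of all tested genes dashed. *NCL* and *NPM1*, the most abundant, lie near 0, and *GNL3*, at 350.9 CPM, is the most abundant gene below −1.

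Across the 60 genes Spearman's rho between the mean CPM with DMSO and the log2 fold change was 0.295, against 0.0898 across 11121 tested protein-coding genes, as a description over genes that share the same libraries. Per kilobase of mature transcript, the mean level over all samples ran from 2.03 CPM for *RRP8* to 1254 CPM for *NPM1*. Mature transcript length gave a rho with the log2 fold change of −0.043 over the members and −0.288 over the protein-coding genes, and the number of exons gave 0.228 and 0.159. The 3 members with a single exon, *IMP3*, *RRS1* and *UTP3*, all had a log2 fold change of −1 or less, as did 64.1% of 181 single-exon protein-coding genes. Of 7 members with 20 or more exons, 1 (*NOC3L*) had such a change, as did 12.7% of 1758 protein-coding genes of that class. Small nucleolar RNAs lay on the same strand within 7 members (*WDR43*, *GNL3*, *PPAN*, *NOP56*, *NOP58*, *DKC1* and *NCL*), whose median log2 fold change was −0.53, against −0.50 for the other 53.

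Among members with a matched window, the E-box was found in similar shares of those that fell strongly and of the others. Of the members lower by at least 2-fold, 6 of 17 windows held it (35.3%), and of the other members 13 of 33 did (39.4%). *MPHOSPH10*, *RRS1* and *RRP1B*, also lower by at least 2-fold, had no matched window, and *MPHOSPH10* was the lowest member of all. The median log2 fold change was −0.31 for members with it and −0.57 for members without it. In the stretches printed above, *WDR43* and *GNL2* have the motif at base 4 of the transcript and lie at −2.78 and −0.31, while *FBL*, with it at base 7, lies at 0.10. A match is a sequence only, and binding of MYC was not measured in these samples. *MYC* itself was at 181.1, 176.6 and 184.4 CPM with DMSO and at 76.1, 74.3 and 44.1 CPM with CDKI-73. Replicate 3 was again the lowest, and the log2 fold change was −1.52 (SE 0.19, limma adjusted p = 1.17e-04).

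**Figure D4:**
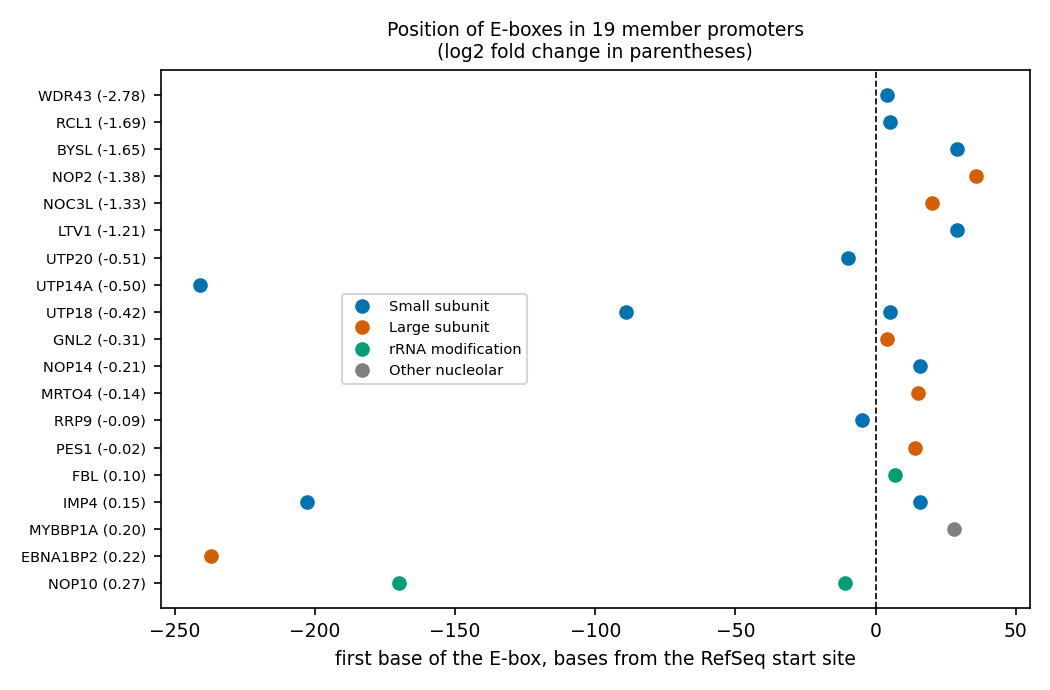
Distance in bases from the RefSeq start site (dashed line) to the first base of each E-box in the 19 members that hold one, coloured by role and ordered by log2 fold change (in parentheses). Of 22 matches 17 lie within 50 bases of the start site, from *WDR43* at the top to *NOP10* at the bottom. The window ends 50 bases after the start site, which bounds the 14 matches that begin at or after it.

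Further genes of the pathway also spread widely. Of 38 other small subunit genes, 25 passed as lower (65.8%, against 48.2% of all tested genes), 8 of them by at least 2-fold. A further 5 were higher (13.2%, against 24.2%), and the median log2 fold change was −0.33. The 8 are 21.1% of the list, against 22.3% of all tested genes. Over the 4 other scalings 16 to 34 were lower (7 to 14 by at least 2-fold) and 0 to 13 were higher. The lowest were *NGDN* (−2.95) and *UTP23* (−2.93), and the highest were *TSR3* (0.41) and *BUD23*, listed as *WBSCR22* (0.36), which both modify the small subunit rRNA. Of 37 other large subunit genes, 28 passed as lower (75.7%), 9 of them by at least 2-fold, and 3 were higher (8.11%). Their median was −0.50. The 9 are 24.3% of the list, and over the other scalings 21 to 35 were lower (5 to 15 by at least 2-fold) and 0 to 8 higher. *MAK16* (−2.05) and *NOL8* (−1.84) were the lowest, and *NSA2* (0.34) and *EIF6* (0.24), which keeps the subunits apart, the highest. The large subunit median was thus below the small subunit median in these lists, while among the 60 members the order was reversed (−0.43 and −0.60). Neither order was tested. Of 15 other modification and snoRNP assembly genes, 9 passed as lower (4 by at least 2-fold) and 5 were higher, with a median of −0.34. The 4 are 26.7% of the list, and over the other scalings 7 to 12 were lower (3 to 7 by at least 2-fold) and 0 to 6 higher. *TGS1*, which trimethylates the cap of U3, went from 44.6 ± 1.36 to 6.60 ± 0.954 CPM (SD, n = 3), or −2.75, and the snoRNP assembly gene *ZNHIT6* was at −1.45. The highest of this list were *RUVBL2* (0.32), a helicase of the assembly machinery, and *TRMT112* (0.31), a partner of methyltransferases.

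Of 6 genes for initiation factors of RNA polymerase I, 5 were lower, 3 of them by at least 2-fold, and none had a positive log2 fold change. The share of all tested genes lower was 48.2%, and 22.3% by at least 2-fold. Over the other scalings 5 to 6 were lower, and by at least 2-fold 2 were by the median of ratios, 1 by the upper quartile and 1 by the trimmed mean, and 5 by the reference genes, with 1 by treat. *TAF1A* and *TAF1B*, of the selectivity factor, were at −1.77 and −1.20, *UBTF* at −1.14, *RRN3* at −0.62 and *TAF1D* at −0.60, while *TAF1C* did not pass (−0.07, limma adjusted p = 0.51). The cytosolic ribosomal protein genes differed in direction from the factors that assemble their products. Of 79, 71 took a larger share of reads (89.9%, against 24.2% of all tested genes) and 2 a smaller one (2.53%, against 48.2%). Their median log2 fold change was 0.45, but by the reference genes 8 passed as higher and 4 as lower. By that scaling 395 of all 13373 tested genes were higher and 9882 were lower. *RPS28* was among the highest (0.73), and *RPL36A* (−2.02) and *RPL17* (−0.34), which have read-through genes that could share their reads, were the lowest.

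**Figure D5:**
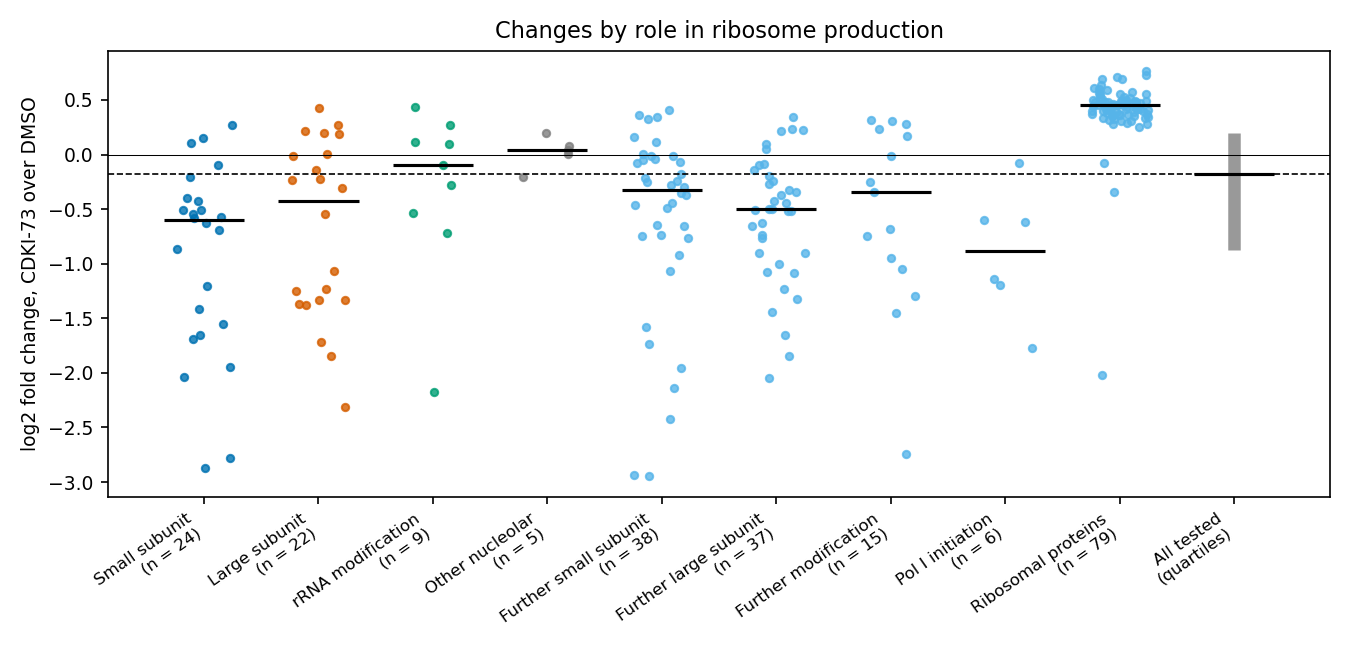
Log2 fold change, CDKI-73 over DMSO, of single genes (points) with the median of each list (bars), for the 4 roles, the further pathway genes, the RNA polymerase I initiation factors and the ribosomal proteins. The last column gives the median and quartiles of all tested genes, and the dashed line their median (−0.18). The list medians run from −0.88 for the polymerase I factors to 0.45 for the ribosomal proteins.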

How the data were processed

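Stranded single-end RNA-seq of polyA+ RNA was deposited as 1 table of all samples. The authors mapped reads to hg38 with STAR, counted them per gene and ran their own test on TMM normalized counts (edgeR 3.3 under R 3.2.3). Which annotation and strand they counted is not given in the sources used here. What they deposited is CPM rounded to 0.01, with each sample summing to the same total, so no TMM factor is included. CDKI-73 also stands in the titles of the vehicle samples, whose group was taken from the treatment label.

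Because CPM are not counts, log2(CPM + 0.1) was tested with limma (version 3.58.1, R 4.3.3, moderated variances with a trend on level and no block) for genes with a mean of at least 0.5 CPM, with Benjamini-Hochberg adjustment over all of them and a threshold of 0.05. Fold changes on this scale understate those of low genes. The procedure was also run on simulated data in which few genes changed. That run did not test the scaling. Counted reads were inferred as the total for which CPM values lay within rounding of whole reads, and no count test was run on them. Lists are described by counts and medians. The members, their roles and the other lists were chosen with earlier results of these data known.

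Values in every sample are given for the 3 lowest and 2 highest members of each role, for partners in 4 complexes and for *MYC*. Of the other lists the 2 lowest and 2 highest genes past the threshold are named, except where a gene is not reported here. *GNL3*, *WDR74*, *WDR75* and the further RNA polymerase I genes were chosen after their values were seen. Gene positions and promoters are from RefSeq (GRCh38.p14), and exons, lengths (canonical transcripts) and small nucleolar RNAs from GENCODE 44. No promoter window was matched for *BOP1*, *DDX18*, *DDX52*, *MPHOSPH10*, *NOLC1*, *NOP58*, *RRP12*, *RRP1B*, *RRS1* and *TCOF1*. Alternatives were pseudocounts of 0.01 and 1 CPM, no filter, a mean of at least 2 CPM, 4 scalings, limma without trend, robust or with treat against 2-fold, a block for the replicate number, leaving out single samples, *NOP2* counted with rRNA modification, and the small subunit group without its late factors.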

Additional observations from a re-analysis of the deposited data

How the results depend on the processing

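All 20 members lower by at least 2-fold passed as lower under every pseudocount, filter, scaling, block and left-out sample tried in limma, and 17 of them with treat. Scaling moved the rest. In the order median of ratios, upper quartile, trimmed mean and reference genes, the median log2 fold change was −0.31, −0.23, −0.27 and −0.91 over the members, −0.40, −0.33, −0.37 and −1.01 over the small subunit, −0.23, −0.15, −0.19 and −0.84 over the large subunit, 0.11, 0.18, 0.15 and −0.50 over rRNA modification and 0.24, 0.32, 0.28 and −0.37 over the other nucleolar genes. In the same order 19, 21, 19 and 0 members were higher, as were 5, 5, 5 and 0 modification genes and 4, 4, 4 and 0 other nucleolar genes, of which 0, 0, 0 and 5 were lower. By the upper quartile 4 small and 8 large subunit genes were higher, and by the reference genes 0 and 0, with 7 modification genes lower and 2 of them by at least 2-fold. Of the genes past the threshold, the sign turned by the reference genes for *IMP4* (−0.25), *NOC4L* (−0.13), *BOP1* (−0.21), *LAS1L* (−0.14), *PA2G4* (−0.22), *EBNA1BP2* (−0.19), *NOP10* (−0.14) and *MYBBP1A* (−0.21). By the upper quartile and the trimmed mean it turned for *NOP14* (0.066 and 0.027), *WDR12* (0.051 and 0.012), *RRP15* (0.041 and 0.0020), *MRTO4* (0.14 and 0.096) and *TCOF1* (0.071 and 0.032), and for *MRTO4* also by the median of ratios (0.061). A scaling adds nearly the same shift to each gene (0.20, 0.28, 0.24 and −0.41).

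With no filter and without trend, 3 large subunit and 1 modification genes were higher. Leaving out 1 sample gave 6 to 11 higher members (6 without DMSO replicate 2), member medians from −0.54 to −0.43, and higher counts of 1 to 2 in the small subunit, 3 to 4 in the large subunit, 1 to 3 in rRNA modification and 1 to 2 in the other nucleolar genes. With *NOP2* counted with rRNA modification, 2 genes of that group were lower by at least 2-fold, with a median of −0.19, and the large subunit median was −0.31. Deviations from the group means correlated at −0.30, 0.11 and −0.23 between same-numbered samples, and at −0.22 to 0.34 between differently numbered ones. Deviations from a mean of 3 samples constrain each other, so these values cannot decide whether the numbers mark pairs. The labels do not say so either. With the replicate block 39 members were lower, 7 were higher and 20 lower by at least 2-fold, with 3 large subunit and 1 modification genes higher. The cause of these changes was not tested, and with 3 samples a group calls near the threshold depend on single samples.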
